A study of Mus musculus with 2 samples.

Results

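The cytosolic ribosomal protein (RP) genes encode the proteins that, with the ribosomal RNAs, form the large and the small subunit of the ribosome. They were taken from the gene list of the deposited matrices by their symbols. A symbol had to consist of Rpl or Rps and a number, with at most 1 letter and 1 digit after it. *Rplp0*, *Rplp1*, *Rplp2* and *Rpsa* were added. This gave 83 of 32285 genes, of which 51 belong to the large and 32 to the small subunit, and 6 of the 83 are paralogs of another RP gene (*Rpl22l1*, *Rps27l*, *Rpl10l*, *Rpl39l*, *Rpl3l* and *Rpl7l1*). Their transcripts were counted in single nuclei of the hippocampus with 3′ chemistry, in 1 library of PS19 mice (PS19+/- Zbp1+/+) and 1 library of PZKO mice (PS19+/- Zbp1-/-). Per genotype, the hippocampi of 5 males at an age of 9 months were pooled, and both genotypes carry the PS19 transgene, a mutant human tau (P301S) that is driven by the mouse prion promoter. The PZKO mice also lack *Zbp1*, a sensor of Z-form nucleic acids, in every cell. The study asked how the loss of this sensor changes the cells of a hippocampus with tau pathology, and the RP genes are described here across its cell classes and in both libraries.

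RP genes are among the most highly expressed genes of any cell, and their products are needed in nearly equal amounts, since each ribosome holds a single copy of most of them. Their mRNAs are short, stable and mostly cytoplasmic, and many start with a run of pyrimidines (the 5′ TOP motif) through which mTORC1 and LARP1 control their translation. A nucleus holds newly made RP transcripts together with whatever cytoplasmic mRNA stays attached to it, so that an RP level in nuclei is not the level in the whole cell. The P-stalk proteins Rplp0, Rplp1 and Rplp2 recruit translation factors to the large subunit, and Rpsa sits on the small subunit and has also been known as a laminin receptor.

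Each genotype has 1 library, so that no replicate check exists, no test between genotypes was made, and genotype and library cannot be told apart. All intervals are 95% intervals for counting error only. They take the UMIs (unique molecular identifiers, the count of captured RNA molecules) of a class as independent draws. Where the nuclei of a class vary by more than counting error, these intervals are too narrow. Nuclei were not treated as replicates. After filtering, 9590 nuclei remained in PS19 (median depth 5849.5 UMIs) and 9307 in PZKO (9015 UMIs), and the 2 libraries shared 47 cell barcodes. Marker genes named 26 of 33 clusters as 12 classes, of which 11 held at least 50 nuclei in each library. Excitatory and inhibitory neurons, glia and vascular cells, as a hippocampus holds, were all present by these markers. *Zbp1* itself had 116 UMIs in PS19 (0.996 CPM, the UMIs of a gene divided by all UMIs and scaled to a common total) and 53 UMIs in PZKO (0.310 CPM) over all barcodes, so that 3′ reads assigned to the gene remained in the library labelled PZKO. Whether these come from outside the deleted part was not tested.

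The RP genes gave 829070 UMIs in the nuclei kept, 0.328% of all UMIs, and they made up 0.405% of the UMIs in PS19 and 0.277% in PZKO. Of the 83 genes, 82 had at least 1 UMI, 81 at least 100 and 80 at least 1000. The RP UMIs were spread over many genes. The 10 genes with most UMIs, among them *Rpl6*, *Rpl41*, *Rps24*, *Rpl13*, *Rpl21*, *Rps29*, *Rplp1*, *Rpl38* and *Rpl24*, together held 24.0% of the RP UMIs. The large subunit gene *Rpl6* had 134 CPM in PS19 and 97.9 CPM in PZKO. *Rpl41*, which encodes the shortest protein of the ribosome, had 102 and 67.1 CPM. These genes are compact, with a median span of 3368 bp against 12298 bp for all genes with a position. Per exonic length, the highest levels were those of *Rplp1* (143 CPM per kb, mean of both libraries), *Rpl38* (118) and *Rps29* (100 CPM per kb), whose exons together measure 499, 542 and 693 bp. Since 3′ chemistry counts transcripts at 1 end, a value per length favours short genes.

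Among the P-stalk genes, *Rplp1* (chr9:61913284-61914542, minus strand, mm10) had 89.5 CPM in PS19 and 53.3 CPM in PZKO, *Rplp2* 58.5 and 36.9 CPM, and *Rplp0* 24.9 and 13.9 CPM. *Rpsa* had 68.3 and 43.1 CPM. RP genes have many processed pseudogenes, and the feature list held 5 with an RP pseudogene symbol, with 848 UMIs in all (0.102% of the RP UMIs). Reads that an unlisted copy would share are not separated in these counts, and the level of a single RP gene is uncertain to that extent.

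The RP share was highest in endothelium in both libraries, at 2.45% (2.42 to 2.48) in PS19 and 2.49% (2.46 to 2.52) in PZKO. Microglia came next, with 1.002% and 0.743%, followed by pericytes and mural cells with 0.841% and 0.642%. Oligodendrocytes (0.682% and 0.489%), vascular leptomeningeal cells (VLMC; 0.627% and 0.383%), ependymal cells (0.585% and 0.390%) and astrocytes (0.516% and 0.363%) lay in the middle of the order. Oligodendrocyte precursors (0.425% and 0.296%) and choroid plexus cells (0.408% and 0.266%) were lower. Neurons had the lowest shares, with 0.299% and 0.208% in inhibitory and 0.279% and 0.206% in excitatory neurons. In PZKO the last classes were nearly level, since the interval of inhibitory neurons (0.206 to 0.210) met that of excitatory neurons (0.205 to 0.207). The endothelial share was 4.45 times the median of the other 10 classes in PS19 and 6.67 times in PZKO (log2 2.16 and 2.74). Among nuclei whose UMIs lay between the quartiles of the endothelial nuclei, the log2 ratio was 0.72 in PS19 and 0.62 in PZKO. This left 5 classes, of which 4 were other than endothelium. It also left out the 78 PS19 and 77 PZKO endothelial nuclei with the most UMIs. These nuclei held 74.4% and 83.0% of the endothelial RP UMIs. Depth, the endothelial nuclei and the classes compared thus changed together, and the part of each in the smaller ratio was not tested.

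**Figure D1:**
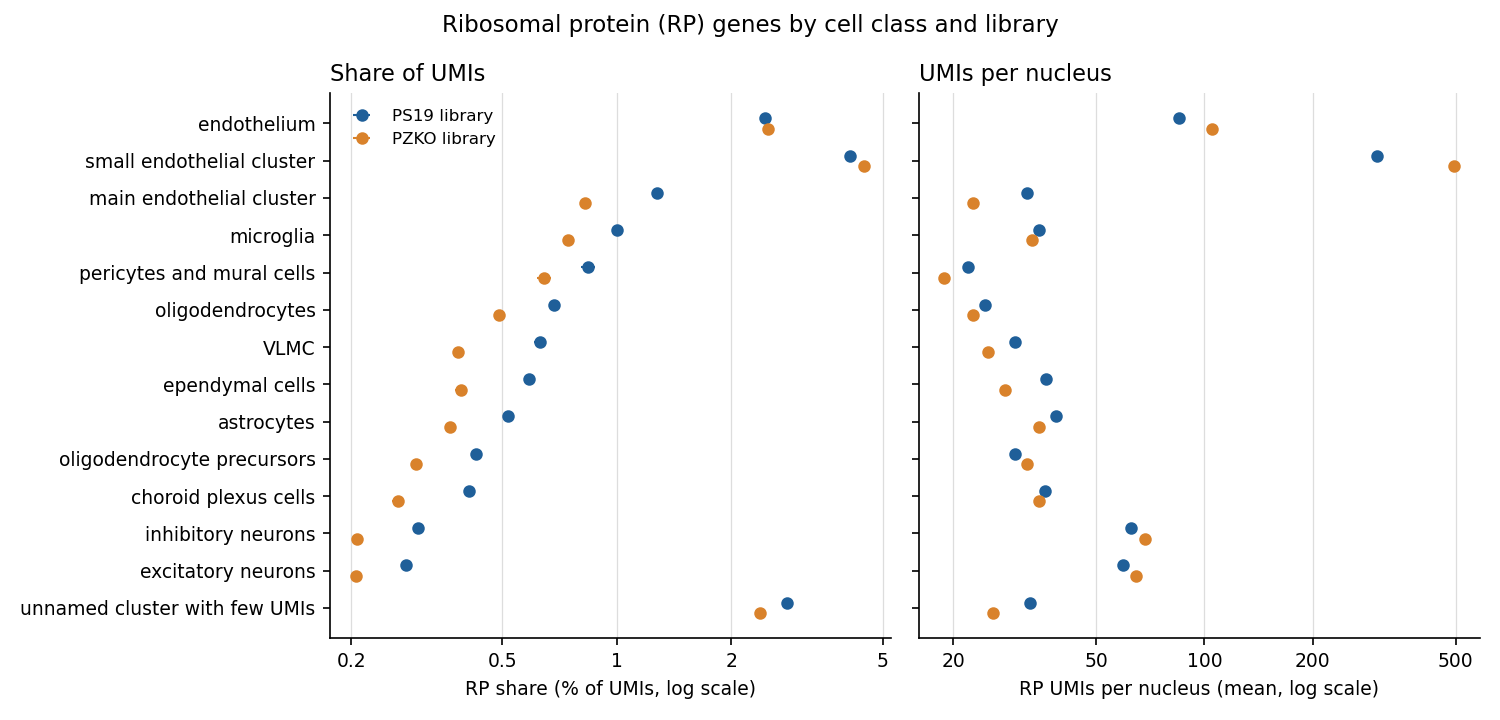
Share of UMIs from RP genes (percent, log axis, with 95% counting intervals) and RP UMIs per nucleus (log axis) in each cell class and in both endothelial clusters, for the PS19 and the PZKO library. The small endothelial cluster stands above every class on both axes (4.11% and 4.46% of UMIs, 302 and 496 RP UMIs per nucleus), while the main endothelial cluster lies within the range of the other classes per nucleus.

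The endothelium consisted of 2 clusters with very different RP shares. The main cluster (252 PS19 and 257 PZKO nuclei) had 1.28% and 0.823% RP UMIs, which was 2.32 and 2.20 times the median of the other classes. The small cluster (61 and 54 nuclei) had 4.11% and 4.46%, 7.46 and 11.95 times that median. It held 18422 of the 26504 endothelial RP UMIs in PS19 and 26763 of 32594 in PZKO. In the main cluster alone, the share was still above that of microglia, by 1.28 times in PS19 and 1.11 times in PZKO.

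Both clusters had the endothelial markers, and the small cluster had pericyte markers as well. The 12 endothelial markers were all detected in both clusters, and their summed level was 23035 and 23359 CPM in the main and 23723 and 22905 CPM in the small cluster. The 10 markers of pericytes summed to 289 and 174 CPM in the main cluster, with 1 marker at 0 in PZKO, and to 5066 and 4344 CPM in the small cluster, also with 1 at 0 in PZKO, against 13061 and 14177 CPM in pericytes and mural cells themselves. Of these markers, *Rgs5* was higher in the small cluster (2804 and 2313 CPM) than in the pericytes (1352 and 1058 CPM), whereas *Pdgfrb*, the growth factor receptor that defines pericytes, had 207 and 193 CPM in the small cluster and 1817 and 1947 CPM in the pericytes. Within the endothelial markers, the tight junction gene *Cldn5* (1599 and 1543 CPM against 338 and 258) and *Ly6c1*, a gene of capillaries (3560 and 3118 against 389 and 250) were higher in the small than in the main cluster. *Slco1a4* was lower (4303 and 3923 CPM against 5324 and 4648). The sums of the 12 markers were nearly alike, so those other than *Cldn5* and *Ly6c1* were together lower in the small cluster. *Vwf*, a gene of larger vessels that is not among the 12 markers, was lower (156 and 210 CPM against 892 and 769). These genes were picked, and the kind of vessel behind each cluster was not tested. The nuclear RNA *Malat1* was also lower in the small cluster (46862 and 42321 CPM) than in the main cluster (70113 and 66240 CPM), and mitochondrially encoded UMIs were higher (2.17% and 2.14% against 0.919% and 0.918%). The part of attached cytoplasm, of pericyte RNA or of joined nuclei in the RP share of the small cluster was not tested.

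The order of the classes by RP share was nearly the reverse of their order by depth. All UMIs are the denominator of the share, so a negative relation to depth is partly built in. Over the 11 classes, the RP share and the median UMIs per nucleus had a Spearman correlation of −0.95 in PS19 and −0.97 in PZKO, and the RP share and the mitochondrial share one of 0.78 and 0.83, where the classes of a library share their preparation and sequencing run. The number of RP UMIs per nucleus, a measure added after the shares had been seen, gave another order. Over the 10 classes other than endothelium it ran from 22.0 in pericytes and mural cells to 62.4 in inhibitory neurons in PS19 (2.84-fold, against 3.58-fold for the share), and from 18.9 to 68.4 between the same classes in PZKO (3.62-fold, against 3.60-fold for the share), with medians of 35.3 and 32.6. The endothelium was above all of these with 84.7 and 105 RP UMIs per nucleus, 2.40 and 3.22 times the median. The main endothelial cluster had 32.1 and 22.7 RP UMIs per nucleus, 0.908 and 0.696 times that median, so that its place above the other classes was lost on this scale. The small cluster had 302 and 496, which was 8.55 and 15.2 times the median.

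Within a class, nuclei with more UMIs had a lower RP share but more RP UMIs. In PS19 microglia, the 237 nuclei with the fewest UMIs had 1.23% RP UMIs (23.6 per nucleus) and the 236 with the most had 0.858% (44.7 per nucleus). In PZKO microglia the 190 nuclei with the fewest had 0.966% and the 189 with the most had 0.656%. The other classes outside the endothelium and the main endothelial cluster had the same order in both libraries. The small endothelial cluster went the other way, from 3.22% to 4.42% in PS19 and from 3.62% to 5.07% in PZKO.

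Single nuclei of a class differed in their RP share, and the endothelium had the widest spread. In excitatory neurons, the 10th to 90th percentiles ran from 0.158% to 0.537% in PS19 and from 0.129% to 0.364% in PZKO. The median nucleus had 1.28% RP UMIs in PS19 endothelium and 0.969% in PZKO endothelium, against 0.933% and 0.727% in microglia and 0.281% and 0.210% in excitatory neurons. In the endothelium, the 10th to 90th percentiles ran from 0.656% to 4.04% in PS19 and from 0.4502% to 3.43% in PZKO. In its main cluster alone they ran from 0.627% to 1.99% and from 0.402% to 1.68%. The median nucleus of the small cluster had 3.88% and 3.82%, and that of the main cluster 1.13% and 0.822%. The median of the whole endothelium was therefore lower in PZKO although its summed share was not, and the 90th percentile of the small cluster was 5.51% in PS19 and 6.61% in PZKO.

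The variance over nuclei was 48.5 and 86.6 times what binomial sampling gives in the endothelium, against 18.4 and 14.9 in excitatory neurons and 9.36 and 6.499 in microglia. It was 19.2 and 8.32 times in the main and 38.6 and 90.4 times in the small endothelial cluster. The classes differ in UMIs per nucleus, on which this ratio depends. When each nucleus was thinned to 1000 UMIs, the median count of RP UMIs was 38 and 39.5 in the small cluster (no nucleus was too shallow), 11 and 8 in the main cluster (8 and 11 nuclei too shallow), 9 and 7 in microglia (7 and 1 nuclei) and 3 and 2 in excitatory neurons (0 and 2 nuclei). At this depth, 205 PS19 excitatory neurons (7.68%) and 389 in PZKO (13.6%) had no RP UMI, while unthinned 0 of 2668 (up to 0.138%) and 1 of 2862 had none. Nuclei with at least 2% RP UMIs numbered 453 in PS19 and 261 in PZKO. Of these, 77 and 59 were endothelial, 53 and 46 of them in the small cluster, and 263 and 166 lay in 1 unnamed cluster with few UMIs.

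**Figure D2:**
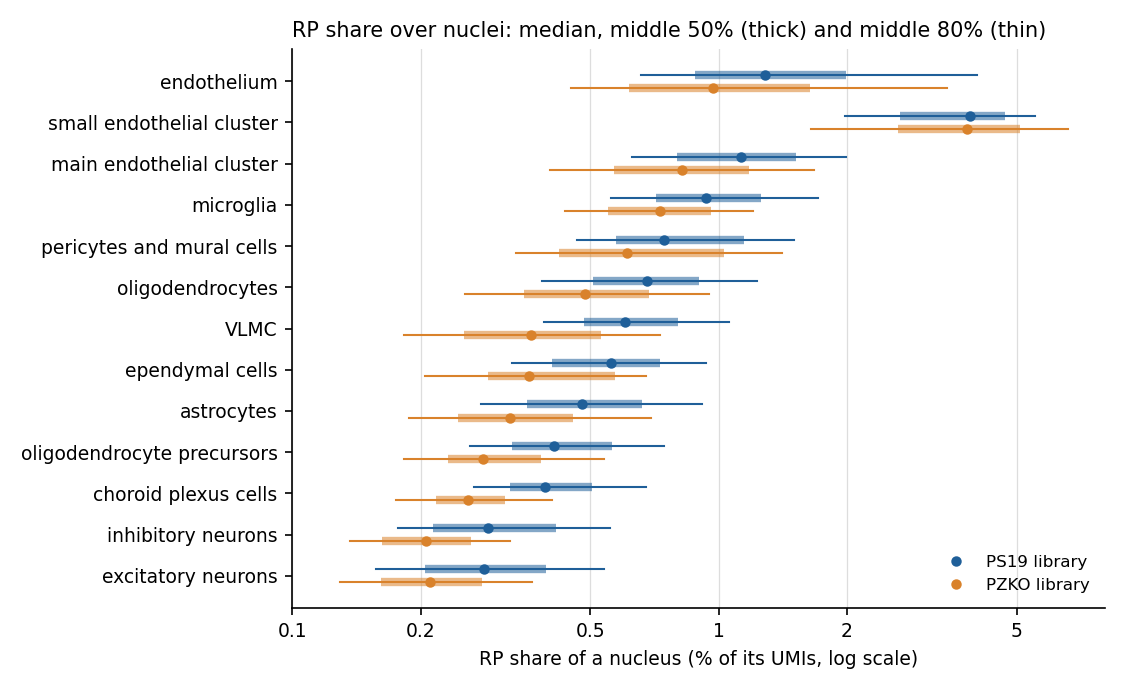
RP share of single nuclei (percent of a nucleus's UMIs, log axis) by class and library, with the median as a point, the middle 50% of nuclei as a thick and the middle 80% as a thin line. The small endothelial cluster lies to the right of all classes with medians of 3.88% and 3.82%, and the excitatory neurons furthest to the left with those of the inhibitory neurons.

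Nearly all RP genes were higher in the endothelium, and they differed mainly in how far. Of 80 RP genes with at least 100 UMIs, 80 were higher in endothelium than the median of the other classes by at least 0.32 on the log2 scale in PS19 (40.8% of 16563 genes were) and 80 in PZKO (41.4% of 17126 genes were). In the main cluster 79 of 80 were in each library (41.3% and 40.7% of genes), and in the small cluster 80 of 80 (36.8% and 37.8% of genes). The median log2 ratio over the RP genes was 2.23 in PS19 and 2.82 in PZKO, where all genes had 0.08 in each, and it was 1.27 and 1.22 in the main and 2.97 and 3.65 in the small cluster. Over the RP genes with UMIs, endothelium was the highest class for 77 in PS19 and 79 in PZKO. With the main cluster in place of the endothelium, it was highest for 67 and 49, microglia for 10 and 21, and pericytes and mural cells for 4 and 10. These counts of the highest class were made for the RP genes only, so no share over all genes stands beside them.

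The largest ratio was that of *Rps4x*, an X-linked small subunit gene, with 342 CPM in PS19 endothelium against a median of 42.5 CPM in the other classes, and 294 against 29.9 CPM in PZKO (log2 ratios 3.01 and 3.30). *Rps16*, whose protein reaches towards the decoding centre, had 316 against 48.2 CPM in PS19 and 377 against 32.7 CPM in PZKO (2.72 and 3.52). *Rpl8*, whose protein lies next to the peptidyl transferase centre, had 326 CPM in PS19 and 324 CPM in PZKO (2.83 and 3.10). These genes kept their direction in the main cluster, where *Rps4x* had 152 CPM in PS19 and 81.8 CPM in PZKO (1.84 and 1.45).

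At the other end stood *Rpl22l1*, a paralog of *Rpl22* that also takes part in RNA splicing, with 73.1 against 33.3 CPM in PS19 and 51.9 against 27.4 CPM in PZKO (1.13 and 0.92). *Rpl7l1*, a paralog of *Rpl7* linked to the assembly of the large subunit, had 56.4 against 27.5 CPM and 53.5 against 21.8 CPM (1.04 and 1.30). *Rpl10a*, the protein of the L1 stalk, had ratios of 1.40 and 1.74 and *Rps13*, a small subunit protein, 1.59 and 2.10. *Rps27l*, a paralog of *Rps27* known as a target of p53, had few UMIs, 36 in PS19 and 44 in PZKO endothelium (1.099 and 2.43). In the main cluster alone, with 8 and 5 UMIs, its ratios were −0.30 and 0.18, and it was the 1 RP gene of the 80 that missed the log2 difference of 0.32.

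**Figure D3:**
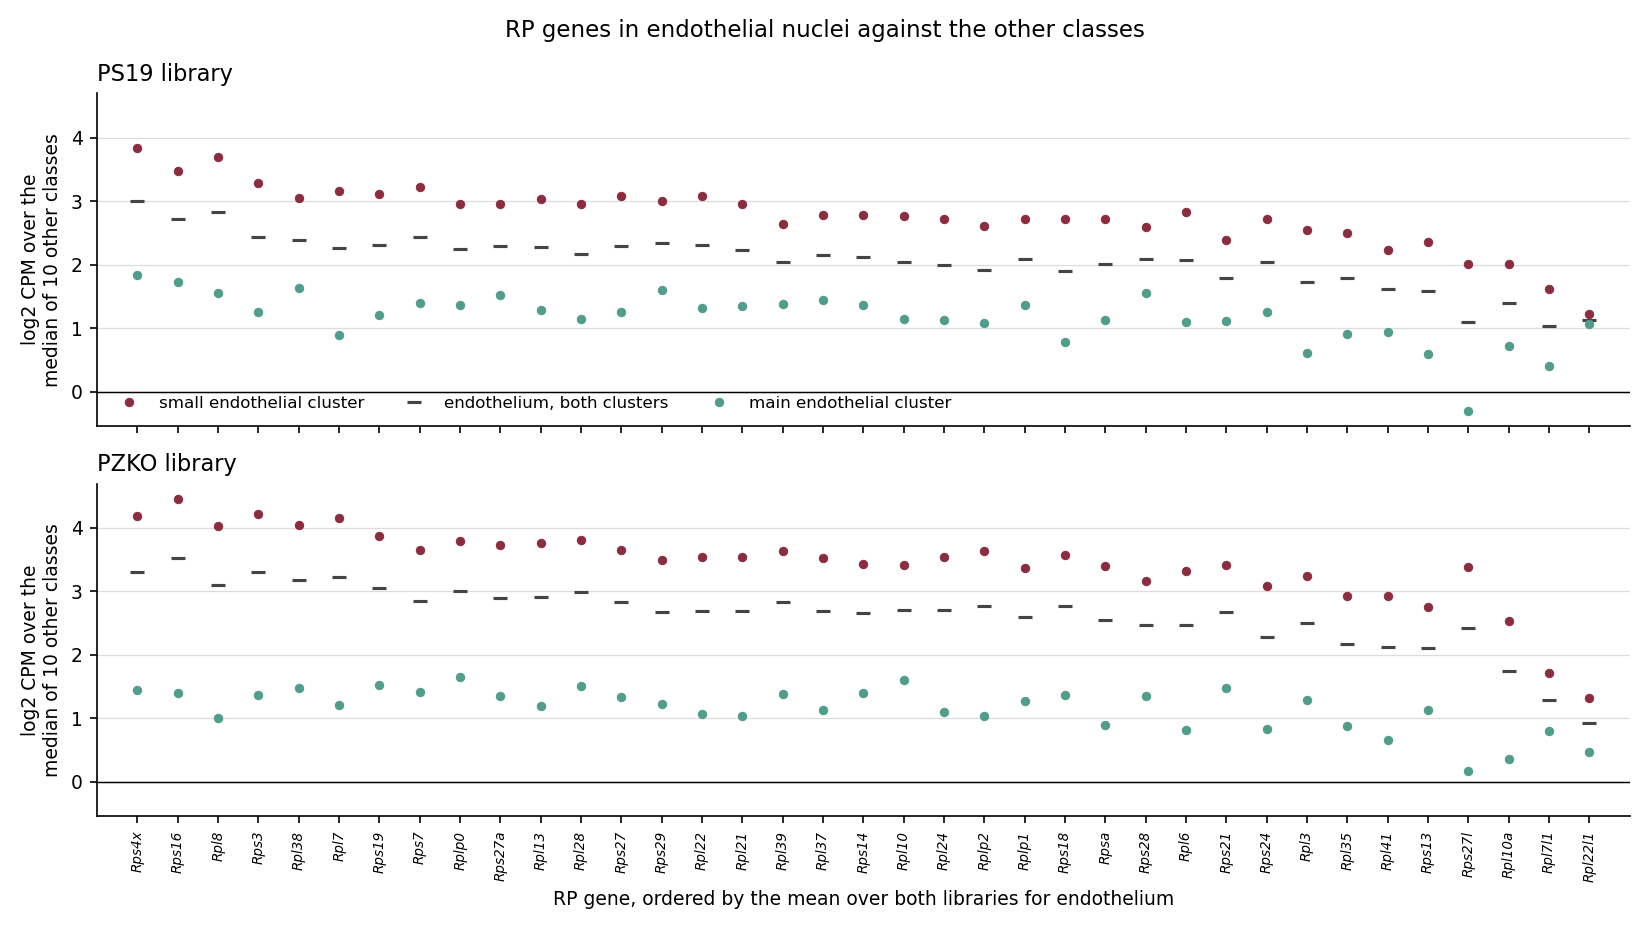
Log2 ratio of CPM over the median of the 10 other classes for the RP genes named in the text that have at least 1000 UMIs, in the PS19 library (top) and the PZKO library (bottom), for the whole endothelium (dashes), its small cluster and its main cluster (points). Genes run from *Rps4x* on the left to *Rpl22l1* on the right. The small cluster lies above the main cluster for every gene shown, and the distance is shortest for *Rpl22l1*.

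The sequence at the annotated transcription start is shown for the genes at both ends of this order, since the pyrimidine run of 5′ TOP mRNAs lies there. RefSeq promoter windows (GRCm38.p6) matched 63 of the 83 RP genes, and 7 of these are shown. Each line gives 30 bases, 15 before and 15 from the start on, on the coding strand, with capitals for the longest run of a C followed by at least 4 pyrimidines (C or T).
*Rps4x*, chrX:102189377-102189406, minus strand: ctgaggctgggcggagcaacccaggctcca
*Rps16*, chr7:28350674-28350703, plus strand: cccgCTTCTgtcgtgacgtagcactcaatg
*Rps13*, chr7:116334176-116334205, minus strand: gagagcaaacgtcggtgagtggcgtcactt
*Rps27l*, chr9:66946071-66946100, plus strand: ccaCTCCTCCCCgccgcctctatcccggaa
*Rps27l* (second start), chr9:66946398-66946427, plus strand: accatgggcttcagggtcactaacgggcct
*Rpl10a*, chr17:28328456-28328485, plus strand: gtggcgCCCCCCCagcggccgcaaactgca
*Rpl10a* (second start), chr17:28328550-28328579, plus strand: gctctatttgagcgcatgcgcaaagcgctc
*Rpl7l1*, chr17:46782642-46782671, minus strand: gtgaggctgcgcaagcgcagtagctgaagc
*Rpl22l1*, chr3:28805493-28805522, plus strand: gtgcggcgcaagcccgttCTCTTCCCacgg

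Of the highest genes, *Rps16* held a run of 5 bases and *Rps4x* none in this window. Of the lowest, *Rps27l* held one of 9 bases, *Rpl22l1* one of 8 and *Rpl10a* one of 7, each at 1 start, and *Rps13* and *Rpl7l1* held none. The genes at both ends of the order therefore did not separate by this run. The longest runs of *Rps16*, *Rps27l* and *Rpl10a* lay wholly before the annotated start, so that they are not part of the annotated transcript. The window at the first start of *Rps27l* also held a shorter run of 5 bases after the start. Neither this run nor that of *Rpl22l1*, which also lay after the start, opened the transcript. Over all RP genes with an entry, 44 of 75 starts (58.7%) held such a run on the coding strand, against 11948 of 32851 starts of all genes (36.4%), and 42 of 63 RP genes (66.7%) had at least 1 start with it, against 10885 of 27025 genes (40.3%). These counts took runs on either side of the start. A run in this window is a match of letters, and annotated starts can lie some bases away from the used ones.

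The make-up of the RP UMIs was broadly alike in the classes, but not the same. The small subunit supplied between 37.8% (PS19 oligodendrocyte precursors) and 41.7% (PZKO ependymal cells) of RP UMIs. The 10 genes with most UMIs supplied 23.7% of the RP UMIs in PS19 endothelium and 24.4% in PS19 excitatory neurons. The rank of 81 RP genes in PS19 and PZKO had a Spearman correlation of 0.98 in excitatory neurons, 0.98 in endothelium and 0.96 in microglia, and the lowest was 0.66 in pericytes and mural cells, which had the fewest RP UMIs (2135 and 2094). Between the main endothelial cluster and the small one it was 0.91 in PS19 and 0.86 in PZKO. Between the main cluster and the 10 other classes it ran from 0.75 (pericytes and mural cells) to 0.92 (oligodendrocytes) in PS19, and from 0.70 (choroid plexus cells) to 0.93 (oligodendrocytes) in PZKO, with 0.83 and 0.82 for excitatory neurons, where the classes share their library.

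Some RP genes departed from this common make-up, most of them in a single class. Of 594 pairs of an RP gene and a class with at least 50 UMIs in each library, 43 had a share of the RP UMIs that lay at least 0.32 (log2) above or below that over all classes in both libraries. The share over all classes weighs each class by its RP UMIs, and excitatory neurons held the most (157854 in PS19 and 184582 in PZKO). A gene with a high share in these neurons therefore comes out lower in the other classes. The 43 pairs came from 26 of 80 RP genes, and 2 of them were at least 2-fold away. Both of these were paralogs in the endothelium, *Rpl7l1* (log2 −1.54 in PS19 and −1.78 in PZKO) and *Rpl22l1* (−1.26 and −1.89). *Rpl6* departed in 7 classes, with a lower share in endothelium (−0.57 and −0.75), ependymal cells (−0.74 and −0.55), VLMC, oligodendrocytes, astrocytes and microglia and a higher share in excitatory neurons (0.36 and 0.33). Its lower values are thus measured against a share that its level in excitatory neurons raises. *Rpl13*, also a large subunit gene, had a higher share in oligodendrocyte precursors (1.03 and 0.98), where its level was 183 CPM in PS19 and 130 CPM in PZKO, above oligodendrocytes (144 and 110 CPM) and astrocytes (104 and 81.8 CPM). *Rpl10a* had a higher share in microglia (0.84 and 0.85) and a lower share in endothelium (−0.96 and −1.23) and in oligodendrocytes (−0.80 and −0.74). In CPM, *Rpl10a* was highest in microglia, with 238 and 186 CPM against 167 and 147 CPM in endothelium and 40.1 and 31.0 CPM in excitatory neurons. *Rps13* was lower as a share in endothelium (−0.70 and −0.81), *Rps21* was higher in ependymal cells (0.64 and 0.69), and *Rpl41* was higher in choroid plexus cells (0.63 and 0.75).

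**Figure D4:**
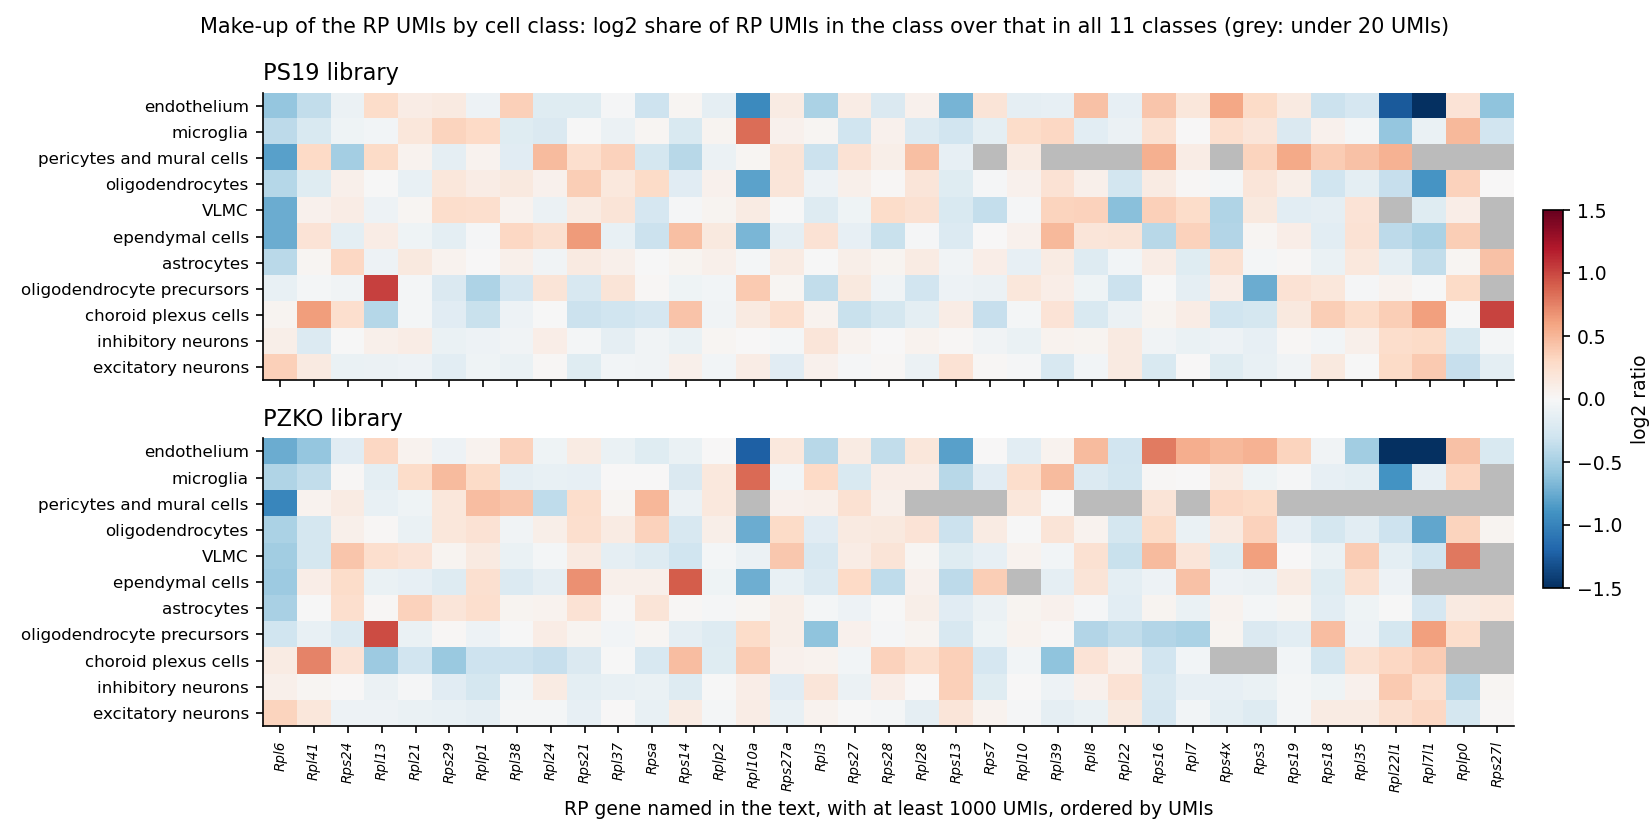
Make-up of the RP UMIs by class in the PS19 (top) and the PZKO library (bottom): the colour gives the log2 ratio of a gene's share of the RP UMIs in a class over its share in all 11 classes, limited to 1.5 either way, for the RP genes named in the text that have at least 1000 UMIs, ordered by UMIs, and grey marks fewer than 20 UMIs. Most cells of the plot are pale, and among the darkest in both libraries are *Rpl7l1*, *Rpl22l1* and *Rpl10a* in endothelium (blue) and *Rpl13* in oligodendrocyte precursors (red).

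The paralogs supplied 1.64% of all RP UMIs. *Rpl22l1* (28.7 CPM in PS19 and 21.4 CPM in PZKO over all nuclei) and *Rpl7l1* (26.8 and 20.3 CPM) made up most of this, and *Rps27l* had 8.35 and 4.36 CPM. *Rpl22l1* was highest in PS19 pericytes and mural cells, with 86.7 CPM from 22 UMIs, and had 69.6 CPM in PS19 and 38.1 CPM in PZKO in the main endothelial cluster, against 78.1 and 68.3 CPM in the small one. *Rpl22* itself had 103 and 63.5 CPM in the main cluster against 352 and 353 CPM in the small cluster. *Rpl7l1* was highest in PS19 microglia (62.9 CPM) and reached 50.2 CPM in PZKO microglia, against 24.5 and 18.8 CPM in excitatory neurons, whereas *Rpl7*, a large subunit gene, was highest in endothelium (263 and 305 CPM).

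The remaining paralogs were rare. Over all nuclei, *Rpl3l*, the form of *Rpl3* found in striated muscle, had 0.665 CPM in PS19 and 0.414 CPM in PZKO. *Rpl3* had 52.0 and 35.4 CPM. The *Rpl3l* level came from 130 UMIs, 67 in PS19 and 63 in PZKO. They lay in astrocytes (28 and 23 UMIs, 3.45 and 2.07 CPM), excitatory neurons (18 and 25 UMIs), inhibitory neurons (16 and 10) and choroid plexus cells (2 and 2), and *Rpl3l* had 0 UMIs in endothelium and microglia. *Rpl39l*, a form of *Rpl39* known from male germ cells, had 6 UMIs in all. *Rpl10l*, the retrocopy of *Rpl10* used in the testis, had 0 UMIs, with a floor of 3 counts.

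Against PS19, PZKO had a lower RP share in all classes but the endothelium. The log2 ratio was −0.44 (−0.45 to −0.43) in excitatory neurons, −0.53 in inhibitory neurons, −0.48 in oligodendrocytes, −0.52 in their precursors, −0.51 in astrocytes and −0.43 (−0.45 to −0.41) in microglia. It was −0.39 in pericytes and mural cells, −0.59 in ependymal cells, −0.62 in choroid plexus cells and −0.71 (−0.78 to −0.65) in VLMC. The endothelium stood apart with 0.02 (−0.00 to 0.05). This combined a ratio of −0.64 (−0.68 to −0.59) in the main cluster with one of 0.12 (0.09 to 0.15) in the small one. The ratio of the small cluster is one of summed UMIs, of which the 13 PZKO nuclei with the most UMIs held 58.9% and the 15 such PS19 nuclei 48.1%, and its median nucleus (3.88% in PS19, 3.82% in PZKO) was not higher in PZKO. Without the small cluster the endothelium was on the side of the other classes. The median over the 11 classes was −0.51.

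Outside the endothelium, other measures moved with this difference, though not to the same extent in each class. The median nucleus had more UMIs in PZKO in every class, by 1.26-fold in microglia, 1.51-fold in excitatory neurons and 1.54-fold in VLMC, but only by 1.022-fold in endothelium. Its clusters did not follow this pattern. The main cluster had 1.06-fold more UMIs with an RP ratio of −0.64, and the small cluster 1.45-fold more with one of 0.12. The share of mitochondrially encoded UMIs had a log2 ratio of −0.70 in excitatory neurons, −0.53 in microglia and −1.14 in inhibitory neurons, against 0.04 in endothelium and −0.00 in its main cluster. In pericytes and mural cells it was only −0.11, with an RP ratio of −0.39. Counted per nucleus, RP UMIs in PZKO were between 0.770 (ependymal cells) and 1.095 times (inhibitory neurons) those in PS19 outside the endothelium. They were lower in 7 of 11 classes, with a median of 0.957. Excitatory neurons had 59.2 RP UMIs per nucleus in PS19 and 64.5 in PZKO, microglia 34.6 and 33.1, and astrocytes 38.6 and 34.6. The lower share in PZKO therefore went with more UMIs of other genes per nucleus, and in neurons and oligodendrocyte precursors it did not go with fewer RP UMIs. The main endothelial cluster had fewer on both scales (0.707-fold per nucleus). The part of sequencing depth in these differences was not tested.

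Most RP genes were lower in PZKO in 9 of the 11 classes, and the endothelium was the exception with many RP genes measured. In excitatory neurons 69 of 80 RP genes were lower by at least 0.32 on the log2 scale (18% of 15796 genes were), in inhibitory neurons 71 of 80 (16.7% of genes), in astrocytes 71 of 80 (19.9%), in oligodendrocytes 72 of 80 (17%) and in their precursors 49 of 64 (16.6%). In microglia 62 of 79 were (14.7% of genes). In choroid plexus cells 59 of 67 were (15.8%), in VLMC 33 of 35 (18.3%) and in ependymal cells 22 of 29 (13.5%), while pericytes and mural cells had only 3 RP genes with enough UMIs, of which 1 was lower (12.3%). In the endothelium 1 of 79 RP genes was lower (11.5% of genes) and 1 higher (12.2% of genes). In the main cluster 61 of 69 were lower (16.5%). In the small cluster 0 of 77 were lower (11.7%) and 7 were higher (14.4% of genes). Over all pairs of an RP gene and a class, 510 of 676 were lower and 1 was higher. RP genes of a class share their denominator and do not count as separate observations of the genotype.

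**Figure D5:**
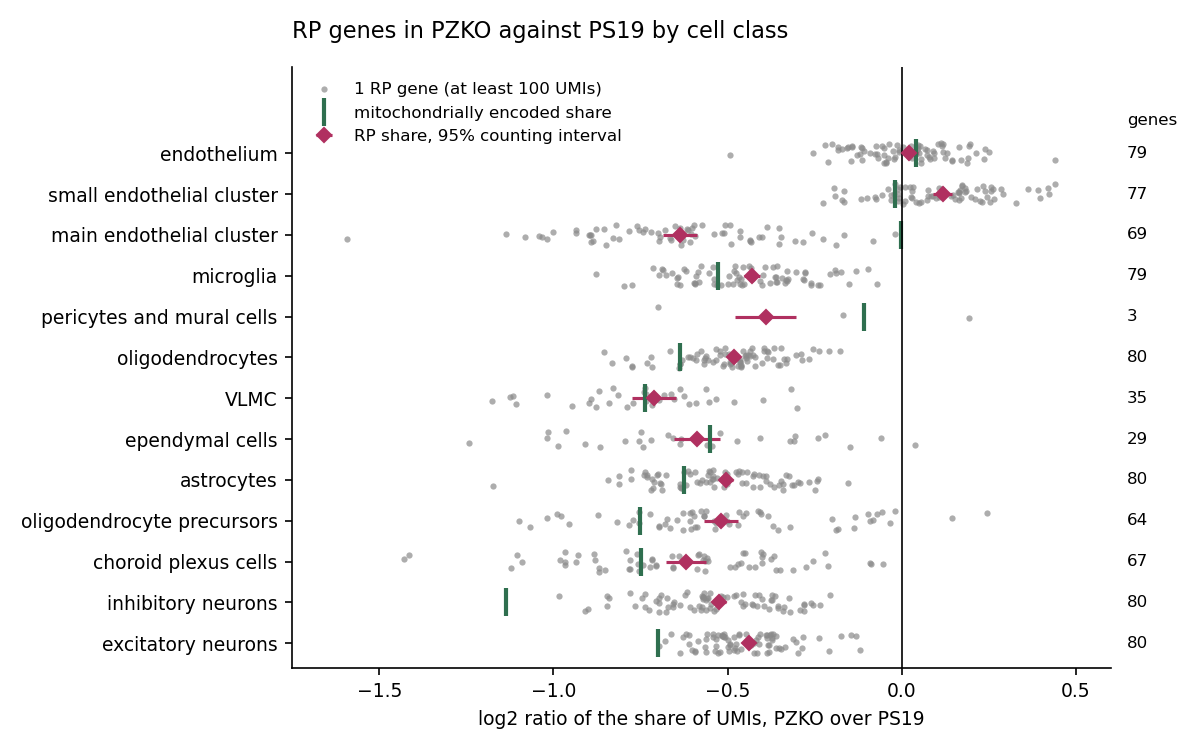
Log2 ratio of the share of UMIs, PZKO over PS19, by class: grey points are single RP genes with at least 100 UMIs (their number stands on the right), diamonds the RP share with its 95% counting interval and bars the share of mitochondrially encoded genes. The points of endothelium and its small cluster lie around 0 (RP share 0.02 and 0.12), and those of nearly all other classes and of the main endothelial cluster lie below 0.

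In the endothelium, the RP gene with the lowest ratio was *Rpl22l1*, with 79 UMIs (73.1 CPM) in PS19 and 68 UMIs (51.9 CPM) in PZKO (log2 −0.49, −0.98 to −0.01). It was followed by *Rpl41* (483 and 405 CPM; −0.25, −0.43 to −0.08), *Rps4x* (342 and 294 CPM; −0.22), *Rps7* (299 and 258 CPM; −0.21) and *Rps28* (242 and 210 CPM; −0.20), where the last 2 belong to the small subunit and have intervals that reach above 0. The 1 RP gene that was higher was *Rps18* (chr17:33951999-33956001, minus strand, mm10), whose protein lies in the head of the small subunit, with 152 UMIs (141 CPM) in PS19 and 250 UMIs (191 CPM) in PZKO (0.44, 0.14 to 0.74). *Rps18* was 0.42 (0.08 to 0.77) in the small and 0.15 (−0.47 to 0.78) in the main cluster, which had 41 and 51 UMIs of it, and with a stricter filter on nuclei its ratio in endothelium turned to −0.17. *Rps16* had a ratio of 0.25 (0.05 to 0.45), *Rpl38* 0.24 (0.08 to 0.39), *Rps19* 0.24 (−0.01 to 0.49) and *Rpl7* 0.21 (−0.01 to 0.44). These ratios again came from the small cluster. In the main cluster *Rpl38*, known for its part in the translation of patterning genes, went from 321 CPM in PS19 to 197 CPM in PZKO (−0.70, −1.02 to −0.38), and *Rps16* from 160 to 86.0 CPM (−0.89).

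In microglia, the lowest was *Rplp0*, the base of the P-stalk, with 85.6 CPM in PS19 and 46.6 CPM in PZKO (−0.88, −1.17 to −0.59). *Rps3*, which lies at the mRNA entry and also acts in DNA repair, had 96.9 and 55.8 CPM (−0.80), *Rps16* 113 and 66.2 CPM (−0.77), *Rps27a*, which is made as a fusion with ubiquitin, 147 and 89.4 CPM (−0.71), and *Rps4x* 111 and 68.3 CPM (−0.70). Those nearest to 0 were *Rps29* (239 and 228 CPM; −0.07, −0.22 to 0.08), *Rpl37* (−0.10), *Rpl28* (−0.13), *Rpl38* (−0.15) and *Rpl3* (−0.17), each with an interval that includes 0. *Rps27l*, with 55 UMIs in PS19 microglia and 19 in PZKO, had too few UMIs for a call (16.9 and 5.64 CPM).

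In excitatory neurons, the lowest was again a P-stalk gene, *Rplp1*, with 59.0 CPM in PS19 and 36.4 CPM in PZKO (−0.70, −0.77 to −0.63). *Rpl7* (26.8 and 16.7 CPM; −0.68), *Rps27l* (5.20 and 3.29 CPM; −0.66), *Rps3* (22.0 and 14.1 CPM; −0.64) and *Rplp0* (13.3 and 8.62 CPM; −0.63) followed. The highest ratios were those of *Rpl35*, a protein at the exit of the peptide tunnel (19.3 and 17.8 CPM, log2 −0.12, −0.23 to −0.01), *Rpl38* (−0.13), *Rpl37* (−0.14), *Rps29* (−0.17) and *Rps14* (−0.21). In this class 80 of 80 RP genes were below 0, and so were 9814 of 15796 genes of all kinds.

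The other P-stalk and *Rpsa* values fell between these ends. *Rplp1* had a ratio of −0.62 in microglia and −0.04 (−0.21 to 0.12) in endothelium, *Rplp2* had −0.54 in excitatory neurons, −0.43 in microglia and 0.05 in endothelium, and *Rplp0* had −0.02 (−0.31 to 0.27) in endothelium. *Rpsa* had 45.5 and 29.8 CPM in excitatory neurons (−0.61), 173 and 116 CPM in microglia (−0.58) and 334 and 340 CPM in endothelium (0.03).

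Genes next to the RP genes in function were set beside them, as counts and medians. The ribosomal proteins whose symbols fall outside the rule were higher in endothelium in 4 of 4 cases in each library (median log2 2.10 in PS19 and 2.78 in PZKO). Among them are *Fau*, which is made as a fusion with a ubiquitin-like protein, *Rack1*, a scaffold on the small subunit, and *Rpl36al*. *Fau* had 643 and 635 CPM in endothelium against 47.6 and 34.6 CPM in excitatory neurons. Of 20 other 5′ TOP mRNAs, 19 were higher in PS19 and 20 in PZKO (1.32 and 1.46), among them *Eef1a1*, the elongation factor that brings tRNA to the ribosome (830 and 780 CPM in endothelium). Translation initiation factors were higher in 21 and 22 of 24 (0.88 and 1.18).

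Genes that build ribosomes or control their output were split between higher and lower. Of 36 ribosome biogenesis genes, 15 were higher and 11 lower in PS19 and 13 and 8 in PZKO (medians 0.09 and 0.19). Over all genes, 40.8% were higher and 35.2% lower in PS19 and 41.4% and 35.1% in PZKO, so that the share of ribosome biogenesis genes that were higher was near that of all genes. Of 18 genes of mTORC1 and LARP1, 5 were higher and 5 lower in PS19 and 6 and 7 in PZKO (0.08 and 0.07). Mitochondrial ribosomal proteins were higher in 55 and 63 of 78 (0.59 and 0.86). Nuclear genes of oxidative phosphorylation were higher in 73 and 69 of 76 (1.18 and 1.54), mitochondrially encoded genes in 12 and 13 of 13 (0.80 and 1.46), and proteasome subunits in 32 of 37 and 35 of 38 (1.08 and 1.07). Nuclear long noncoding RNAs were lower in 9 of 11 in PS19 and 6 of 11 in PZKO (−1.34 and −0.50). In the main cluster of PS19, where the RP genes had a median of 1.27, the medians were 0.56 for other 5′ TOP mRNAs, 0.53 for initiation factors and 0.70 for oxidative phosphorylation.

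The same groups were compared between the libraries. In excitatory neurons the median log2 ratio of the RP genes was −0.47, and the 4 ribosomal proteins outside the rule were all lower (−0.50), of which *Rpl36al* had 15.4 CPM in PS19 and 9.63 CPM in PZKO. Other 5′ TOP mRNAs were lower in 9 of 20 (−0.31), initiation factors in 5 of 24 (−0.23), mitochondrial ribosomal proteins in 32 of 78 (−0.28) and oxidative phosphorylation in 47 of 76 (−0.39), mitochondrially encoded genes in 13 of 13 (−0.72), proteasome subunits in 6 of 35 (−0.15), ribosome biogenesis in 2 of 36 (−0.11) and mTORC1 and LARP1 in 2 of 18 (−0.07). Nuclear long noncoding RNAs were lower in 2 and higher in 2 of 11 (0.13), and all genes had a median of −0.08. This median counts each noncoding RNA alike. Their summed share of the UMIs in excitatory neurons was 11.1% in PS19 and 9.30% in PZKO (log2 −0.26). That summed share was lower in PZKO in every class, from −0.27 in inhibitory neurons to −0.05 in ependymal cells. Since 18% of all genes were lower in excitatory neurons, the counts of initiation factors and proteasome subunits were near that background. In microglia, where 14.7% of all genes were lower, the ribosomal proteins outside the rule were lower in 4 of 4, other 5′ TOP mRNAs in 12 of 20 and oxidative phosphorylation in 49 of 73. In endothelium, where 11.5% of all genes were, they were lower in 0 of 4, 2 of 19 and 13 of 71.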

How the data were processed

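Nuclei from hippocampi of PS19 and PZKO mice were profiled in 1 library each. The authors ran Cell Ranger on mm10 to count the UMIs of each gene per nucleus, and the deposited values are whole-number counts without normalization. The submitters' processing notes name Cell Ranger 7.0.1, and the header of both matrices names Cell Ranger 8.0.1. The methods describe pooled hippocampi and also animals processed separately, and the counts carry no label for the animal. The deposited counts precede the ambient RNA correction, the nucleus filter and the doublet removal of the methods.

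Barcodes with under 600 UMIs or 300 genes (185 in PS19, 121 in PZKO) or over 5% mitochondrial UMIs (845 and 690) were left out of 11469 and 10920, and the nuclei with the highest Scrublet scores (876 and 821) were removed at 0.8% per 1000 nuclei. Both libraries were clustered together (scanpy 1.11.5, leidenalg 0.10.2, 2000 variable genes, 30 components, 20 neighbours, resolution 1), where RP and mitochondrial genes could not be variable genes. Marker lists named the clusters, with at least 3 markers detected, and the limits of the marker score were chosen with the clusters already in view. The 7 unnamed clusters hold 598 and 590 nuclei.

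UMIs were summed per class and library and divided by all UMIs of the class (CPM or percent). Intervals are Clopper-Pearson (shares) and exact conditional binomial (ratios). Since there is 1 library per genotype, a gene was called higher or lower at a log2 difference of 0.32 with at least 100 UMIs, and no p-value was made. A count of 0 allows 3 counts. The RP genes and all lists were chosen with earlier results of these data known. Named genes are the P-stalk genes and *Rpsa*, the paralogs and their sources, the 10 with most UMIs, and the 5 highest and 5 lowest for endothelium against other classes and for PZKO against PS19 in endothelium, microglia and excitatory neurons. Genes that stood out in the make-up of the RP UMIs were named after their values were seen. GENCODE M21 gave positions for 83 of 83 RP genes, and RefSeq promoter windows matched 63. The values of some single genes are not reported here, while counts and medians include them. The ratios and their intervals were tested on simulated class sums that held counting error only. Variation between nuclei or animals, the filters and the clustering were not part of that simulation. Alternatives included scaling by edgeR 4.0.16 (TMM) and DESeq2 1.42.0 size factors (R 4.3.3).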

Additional observations from a re-analysis of the deposited data

Results flagged for a closer look

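The summed RP share differed in opposite directions in the endothelial clusters. The log2 ratio PZKO over PS19 was 0.12 in the small and −0.64 in the main cluster, a difference of 0.75, which was not tested because there is 1 library per genotype. In the small cluster, the 13 PZKO nuclei with the most UMIs held 58.9% of its RP UMIs, the median nucleus had 3.88% in PS19 and 3.82% in PZKO, and the 10th percentile was 1.98% and 1.65%. The whole endothelium (0.02) differed from the median of the 10 other classes (−0.51) by 0.53, and this difference was also not tested. For *Rps18*, the ratio was 0.44 in endothelium and −0.45 in microglia, a difference of 0.90 that was not tested. The microglial value was the median of the RP genes in that class, and their median in endothelium was 0.02. *Rps18* was named as the highest of 79 RP genes in endothelium, so part of this difference comes from that choice and from the classes. With the stricter filter on nuclei, the endothelial ratio of *Rps18* was −0.17.

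RP UMIs were also abundant in barcodes that the main comparisons of classes left out. The unnamed cluster with few UMIs had an RP share of 2.80% in PS19 and 2.38% in PZKO, and 32.8 and 25.8 RP UMIs per nucleus. Barcodes under 600 UMIs or 300 genes had 3.29% and 2.71%, and barcodes over 5% mitochondrial UMIs had 3.16% and 5.07%. All of these lay above the 0.405% and 0.277% of the nuclei kept.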

How the results depend on the processing

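The results were recomputed under 19 alternatives, of which 3 (endothelium without its small cluster, the small cluster alone, and RP UMIs per nucleus) were chosen after seeing the data. Endothelium stood above the median of the other classes under all of them. Its log2 ratio, 2.16 in PS19 and 2.74 in PZKO, was 2.05 and 2.57 with TMM, 2.04 and 2.58 with DESeq2 size factors, 1.64 and 1.86 as a mean over nuclei, 1.62 and 1.86 with nuclei thinned to 1000 UMIs, 0.72 and 0.62 within the endothelial UMI quartiles (5 classes), 1.38 and 1.21 with a stricter filter (10 classes; at most 1% mitochondrial), 2.001 and 2.52 with doublets kept, 3.27 and 4.40 after subtraction of 10% ambient RNA, 2.09 and 2.70 without mitochondrial and nuclear long noncoding RNAs in the denominator, 1.21 and 1.14 without the small cluster, 2.90 and 3.58 for that cluster alone, and 1.26 and 1.69 for RP UMIs per nucleus. In PS19 it was 2.01 with no filter and 2.18 at resolution 0.5, and in PZKO 2.76 with each library clustered alone. The ratio PZKO over PS19 in endothelium, 0.02, was 0.0708, 0.0606, −0.27, −0.27, −0.41 and −0.59 under the first 6 of these in the same order. It was −0.0905 with doublets kept, 0.0636 with ambient RNA subtracted, −0.64 without the small cluster, 0.12 for it alone and 0.31 per nucleus. The sign of this ratio is therefore not fixed by these data. The stricter filter and the removal of the small cluster are not separate checks. Under that filter, the endothelium was 1 cluster of 158 PS19 and 151 PZKO nuclei. In the small cluster, the 16 PS19 and 14 PZKO nuclei with the lowest mitochondrial shares together had 1.38% in each library. The limit of that filter is 1%, so most of the small cluster was left out. The median over classes, −0.51, was −0.38, −0.39, −0.48, −0.48, −0.36 and −0.43 under the same 6, −0.70 with ambient RNA subtracted, −0.53 with the other denominator and −0.0630 per nucleus. Outside endothelium the share was lower in PZKO in 133 of 133 class values under the alternatives that use a share. Per nucleus it turned to 0.12 in excitatory neurons, 0.13 in inhibitory neurons and 0.12 in oligodendrocyte precursors. Pairs of an RP gene and a class that were lower, 510 of 676, numbered 227 of 337 thinned, 116 of 215 within quartiles and 224 of 370 with ambient RNA subtracted, where fewer pairs had enough UMIs, and 84 of 676 per nucleus, where 72 were higher and the lower share of calls went from 99.8% to 53.8%. The share of all genes called was not computed under these alternatives. All UMIs per nucleus rose in PZKO by between 1.12-fold (pericytes and mural cells) and 1.58-fold (inhibitory neurons). TMM and the size factors added up to 0.20 (VLMC) to the log2 ratio of every gene. The ambient RNA subtracted had the profile of the barcodes under 600 UMIs or 300 genes. Their RP share of 3.29% in PS19 and 2.71% in PZKO was far above that of excitatory neurons (0.279% and 0.206%). Counts below 0 were set to 0, so this subtraction weighs most on classes with a low RP share. *Rps27l* in endothelium turned to −0.51 within quartiles, −0.90 with the stricter filter and −0.0608 without the small cluster, and *Rps18* PZKO over PS19 to −0.17 with the stricter filter. The causes of these changes were not tested. No paired analysis was possible because each genotype has 1 library. With 2 libraries, no variation between animals can be seen.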
